A study of Mus musculus with 17 samples.

Results

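The regions described here are the stretches of mouse liver chromatin enriched for acetylated lysine 9 of histone H3 (H3K9ac) whose middle lies more than 1000 and up to 10000 bases upstream of the nearest transcription start site. They were chosen by position alone: the authors' table had to place the region in no intron and no 3′ untranslated region, and the region had to be shorter than 4000 bases. No measured H3K9ac or RNA value entered the choice. Of 57499 regions in the table, 4141 (7.20%) met these limits, and they are called upstream flank regions. They lay nearest to 2847 genes, 3 of them had no readable gene name, and 9 were listed under more than 1 gene and were counted once. The livers came from C57BL/6 mice, an inbred laboratory strain, kept for 10 weeks on a high-fat diet (HFD, 60% of calories from fat) or a control diet (CD, 18%). H3K9ac was measured by chromatin immunoprecipitation and sequencing in 3 HFD livers (letters A, B and D) and 3 CD livers (A, C and D), and polyadenylated RNA in 4 livers per diet (A to D). The sources used here state neither sex, age nor the hour of collection, and they do not say if a letter stands for 1 animal in both assays. If libraries of a diet shared an animal, p-values would measure technical spread only. Whole liver was used, so in each result below fewer cells of a type and less signal per cell cannot be told apart.

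H3K9ac is placed on nucleosomes by acetyltransferases of the GCN5 and PCAF family and removed by histone deacetylases. It is densest on the nucleosomes that flank active start sites and is also found, at lower density, over active enhancers. The upstream flank of a gene can therefore hold an enhancer, the shoulder of a wide promoter, or the start of another transcript, such as an alternative first exon or a long non-coding RNA. In liver, upstream enhancers bound by factors such as HNF4A, FOXA2, C/EBP proteins and nuclear receptors control many metabolic genes.

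The last of these possibilities could be checked against RefSeq, which gives a window of 300 bases, 250 before and 50 after the start, for each annotated start site (assembly GRCm38.p6). Of the 4141 flank regions, 176 (4.25%) overlapped at least 1 of these windows: 72 overlapped a window of their own nearest gene and 108 a window of another gene. Of these 176 regions, 5 (2.84%, beside 2.39% of all regions) differed in H3K9ac between the diets, with adjusted p under 0.05 in the test described with the diets. Their windows are printed here to show which annotated start sites lie in or beside called flank regions. The calls at Bcr and Armc12 held without any 1 library. That at Cdc42bpa was lost without CD C, CD D, HFD A or HFD B (adjusted p up to 0.453), that at Fgf9 without CD A, CD C or HFD B (up to 0.156), and that at Mical3, where the diets overlapped, without CD A, CD D, HFD A or HFD D (up to 0.304). The region 8866 bases upstream of Bcr, which regulates small GTPases, held the whole window of the long non-coding gene Gm51773 (chr10:75052968-75053267, minus strand). The region 7313 bases upstream of Armc12 held that of E230001N04Rik (chr17:28522406-28522705, plus strand). The region 1175 bases upstream of Cdc42bpa, a kinase of the cytoskeleton, held a start window of the same gene (chr1:179960510-179960809, plus strand). The region 1166 bases upstream of Fgf9, a growth factor, held 145 bases of a window of that gene (chr14:58072436-58072735, plus strand) and ended before its start site, and the region 6660 bases upstream of Mical3 held 203 bases of that of Gm30842 (chr6:121137237-121137536, plus strand). The first of the RefSeq start windows of Per1, a repressor of the circadian clock, is added because the flank region, the promoter and the RNA of Per1 were all higher in HFD (chr11:69098699-69098998, plus strand). It lies outside the flank region. All are written 5′ to 3′ on the strand of the gene, and capitals mark the motif matches described after them.
Gm51773: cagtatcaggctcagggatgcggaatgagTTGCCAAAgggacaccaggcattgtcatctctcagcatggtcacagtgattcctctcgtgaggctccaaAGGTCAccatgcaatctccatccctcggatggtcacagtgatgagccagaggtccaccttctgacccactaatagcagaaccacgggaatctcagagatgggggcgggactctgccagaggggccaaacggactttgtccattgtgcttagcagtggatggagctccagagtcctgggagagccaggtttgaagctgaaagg
E230001N04Rik: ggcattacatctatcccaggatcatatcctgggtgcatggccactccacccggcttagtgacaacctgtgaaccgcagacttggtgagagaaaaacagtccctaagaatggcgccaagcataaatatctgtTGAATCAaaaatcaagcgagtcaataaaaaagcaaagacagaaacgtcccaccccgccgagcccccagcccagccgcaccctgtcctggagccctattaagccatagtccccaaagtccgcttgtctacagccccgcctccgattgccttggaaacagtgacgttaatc
Cdc42bpa: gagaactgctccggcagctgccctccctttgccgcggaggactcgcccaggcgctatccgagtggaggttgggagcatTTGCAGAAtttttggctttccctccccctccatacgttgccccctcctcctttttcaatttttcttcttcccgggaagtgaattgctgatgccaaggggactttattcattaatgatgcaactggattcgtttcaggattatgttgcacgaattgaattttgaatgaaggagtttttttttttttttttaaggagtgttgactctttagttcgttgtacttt
Fgf9: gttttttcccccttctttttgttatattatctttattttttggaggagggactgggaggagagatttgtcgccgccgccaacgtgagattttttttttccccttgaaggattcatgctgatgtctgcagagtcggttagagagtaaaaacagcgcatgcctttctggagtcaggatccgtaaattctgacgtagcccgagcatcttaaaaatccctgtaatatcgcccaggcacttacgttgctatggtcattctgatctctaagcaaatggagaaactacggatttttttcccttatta
Gm30842: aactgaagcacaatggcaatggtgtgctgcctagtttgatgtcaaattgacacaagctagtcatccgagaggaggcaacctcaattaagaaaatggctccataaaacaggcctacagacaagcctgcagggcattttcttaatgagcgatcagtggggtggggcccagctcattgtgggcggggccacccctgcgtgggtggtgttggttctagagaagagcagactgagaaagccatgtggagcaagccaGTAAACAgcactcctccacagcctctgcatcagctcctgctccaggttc
Per1: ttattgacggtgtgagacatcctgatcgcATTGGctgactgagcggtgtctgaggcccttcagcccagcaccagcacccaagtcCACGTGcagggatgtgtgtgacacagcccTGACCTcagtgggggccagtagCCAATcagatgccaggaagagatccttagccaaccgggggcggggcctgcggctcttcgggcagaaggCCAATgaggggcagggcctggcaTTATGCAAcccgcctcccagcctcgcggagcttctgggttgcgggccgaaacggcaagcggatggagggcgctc

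The motifs searched, on both strands, were the E-box CACGTG, the D-box TTANGTAA, the C/EBP motif TTGCNNAA, the FOXA motif TGTTTAC, the CCAAT box, the TATA box TATAAA, the AP-1 motif TGANTCA and the nuclear receptor half-site AGGTCA. The Gm51773 window held 1 C/EBP match and 1 half-site, that of E230001N04Rik 1 AP-1 match, that of Cdc42bpa 1 C/EBP match and that of Gm30842 1 FOXA match. The Fgf9 window held 0 matches. The Per1 window held 6 matches that do not overlap each other: 1 E-box, 1 C/EBP match, 1 half-site and 3 CCAAT boxes. Of all 32851 RefSeq windows, 7.15% held an E-box, 10.8% a C/EBP match, 16.3% a half-site, 3.65% a FOXA match, 7.81% an AP-1 match and 37.4% a CCAAT box. Among the 200 windows overlapped by flank regions these shares were 7%, 10%, 16.5%, 5%, 3.5% and 35%. The D-box, in 2.32% of all windows, was found in 1 of the 200, and the TATA box, in 13.6%, was found in 17. The windows overlapped by flank regions had a median G+C content of 56.7% and a median of 12 CpG dinucleotides, beside 52.7% and 7 over all windows. A match describes the letters only.

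Most flank regions were short and weakly acetylated. Their median length was 452 bases (213 to 3970), and their median level was 2.08 CPM (reads of a region scaled to the library's total, with edgeR's TMM factors; 0.717 to 377, mean of 6 libraries). That level corresponded to a median of 22.8 reads per library, so single regions were measured with few reads. Only 478 regions exceeded 10 CPM and 20 exceeded 100 CPM. The promoter-proximal regions, those with a middle within 1000 bases of a start site, had a median length of 1318 bases and a median level of 34.7 CPM (13830 regions). Reads in flank regions made up 2.40% to 2.56% of all counted reads in each library, between 222373 and 306701 reads. The share was 2.52% ± 0.0311 (SD, n = 3) in CD and 2.5% ± 0.0828 (SD, n = 3) in HFD. The 2 diets overlapped, and a two-sided exact permutation test gave p = 0.80, where 0.10 is the smallest p that 3 against 3 libraries allow.

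Per kilobase and taken as whole classes, the flank regions were about as acetylated as distal regions and far less than promoter-proximal regions. The median density, as log2 CPM per kilobase with 0.5 reads added, was 2.27 to 2.37 over the flank regions and 4.57 to 4.64 over the promoter-proximal regions, so no library of one class overlapped the other. The difference was -2.28 ± 0.0626 (log2, mean and SD over 6 libraries). It had the same sign in 6 of 6 libraries, with p = 0.0312 in an exact sign-flip permutation test (two-sided, the smallest p that 6 libraries allow) and an adjusted p of 0.0417 over the 4 such comparisons made. Against the distal regions, over 10000 bases from any start site, the difference was 0.0063 ± 0.0176, which was within the spread between libraries (exact permutation p = 0.4375). Against the 2647 regions at the same distances downstream of the start site, outside introns and 3′ untranslated regions, the flank regions were denser by 0.12 ± 0.0415, in 6 of 6 libraries (exact permutation p = 0.0312, adjusted 0.0417). The 176 flank regions that overlap a RefSeq start window were denser than the other 3965 by 0.72 ± 0.0595, again in 6 of 6 libraries (exact permutation p = 0.0312, adjusted 0.0417). They were also longer, with a median of 996 bases beside 444. The other 3965 include regions whose start sites could not be checked.

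**Figure D1:**
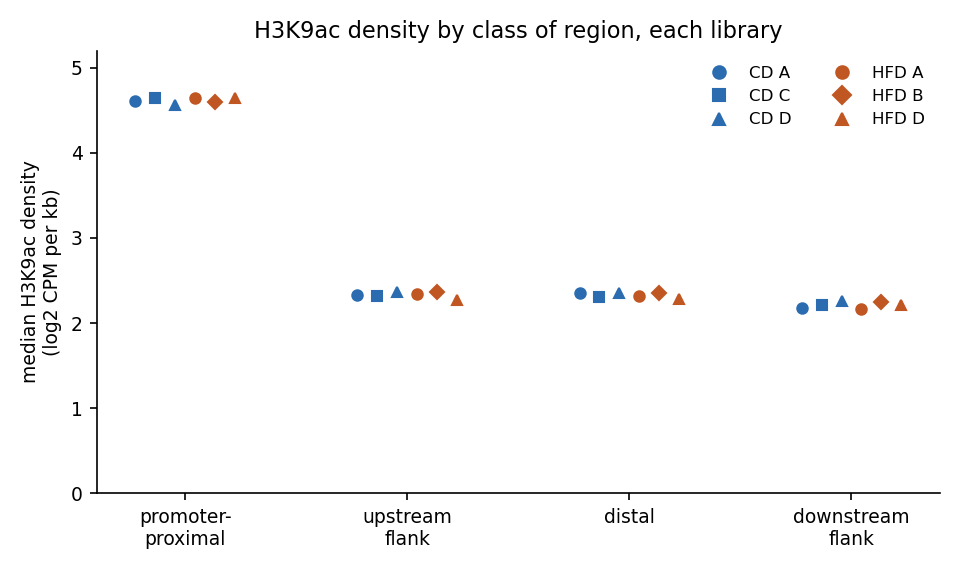
Median H3K9ac density (log2 CPM per kilobase, vertical axis) of each class of region in each of the 6 libraries, with blue for CD, orange for HFD and the marker shape for the library letter. The flank values lie between 2.27 and 2.37 and those of promoter-proximal regions between 4.57 and 4.64.

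Within the flank, the level varied little with distance. The median distance from region middle to start site was 4339 bases. Median levels in 5 bands of distance, from the nearest (up to 2000 bases) to the farthest (over 7500 bases), ran from 2.02 to 2.16 CPM. For 241 regions the nearer edge reached within 1000 bases of the start site although the middle did not, and their median level was 3.92 CPM, beside 2.03 CPM for the other 3900. At the limits of the definition, 82 regions lay within the first 100 bases beyond the limit with a median of 1.72 CPM, and 83 that met the other limits lay within 100 bases inside it with a median of 1.90 CPM. The 36 flank regions of 3000 bases or more had a median of 46.9 CPM, and the 13 excluded for lengths from 4000 to under 5000 bases had 135 CPM. The flank is not empty of genes in the newer annotation: 1744 regions overlapped a RefSeq gene body, 1141 that of a protein-coding gene and 631 that of a long non-coding RNA, and 510 overlapped a longer form of their own nearest gene. The authors' table itself places 485 regions within 10000 bases downstream of a gene, so the nearest gene is an assignment by distance, not a measured target.

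Most strongly acetylated per kilobase was the region 3067 bases upstream of Nr3c1, which encodes the glucocorticoid receptor. It held 110 CPM per kilobase, and its 6 levels ran from 352 to 403 CPM with both diets mixed along that range (log2 HFD/CD 0.02 ± 0.07). The next 7 lay upstream of Gigyf1, Zscan25, Mirlet7a-1, Fbrs, Pcdh1, Lrg1 and Bahcc1, at 67.9 to 84.6 CPM per kilobase. Of these 8, the regions of Zscan25, Fbrs and Bahcc1 overlapped a RefSeq start window. Those of Nr3c1 and Pcdh1 lie on chromosome 18, where no overlap with a window was found for any flank region, so they could not be judged. The Pcdh1 region, 3970 bases long with its middle 1257 bases upstream, reaches past the start site of Pcdh1. Only the Pcdh1 region, upstream of a protocadherin gene, passed the test between diets, with a log2 change of -0.24 ± 0.07 (adjusted p = 0.0362), lost without any of CD A, CD C, CD D, HFD A or HFD B (up to 0.39). Lrg1, a secreted acute phase glycoprotein, had 164 to 209 CPM in CD and 155 to 164 CPM in HFD (log2 -0.25, adjusted p = 0.0738).

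The comparison of diets asks which upstream regions gained or lost H3K9ac after the high-fat diet. The regions were first filtered for low counts (filterByExpr of edgeR), a filter that a faint region can pass through 1 diet alone. Any region that did not pass it counts as not called in the shares below. The rest were tested with the quasi-likelihood test of edgeR, with Benjamini-Hochberg adjustment across all of them. All adjusted p-values of regions and genes below come from this test unless another is named. Of the 4141 flank regions 87 passed (2.10%, beside 2.39% of all regions): 29 were higher in HFD (0.835% of all regions were) and 58 were lower (1.55% of all regions). The flank was thus called about as often as the table as a whole. The median log2 change of the flank regions was -0.00, as over all regions, and 90% of them lay between -0.68 and 0.60. The diets did not overlap in 648 flank regions (15.6%, beside 15.4% of all regions). Of the 87 called regions, 75 had non-overlapping diets. In the other 12, the library reaching into the range of the other diet was CD D in 8 regions, HFD D in 7, HFD A and HFD B in 6 each, and CD A and CD C in 3 each.

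The share called rose with length, and with it the reads per region. It was 1 of 910 regions below 300 bases (0.11%), 17 of 1394 from 300 to under 500 bases (1.22%), 28 of 1171 up to under 1000 bases (2.39%), 27 of 520 up to under 2000 bases (5.19%) and 14 of 146 from 2000 bases (9.59%). Over all regions of the table, the shares in the same bands were 0.173%, 0.929%, 2.14%, 3.83% and 7.65%. The median read count per library was 13 in the shortest band and 322.5 in the longest, so a change of the same size could be called in long regions and missed in short ones. By distance, 8 of 738 regions were called up to 2000 bases (1.08%), 12 of 638 up to 3000 (1.88%) and 20 of 990 up to 5000 (2.02%). Farther out, 26 of 943 were called up to 7500 bases (2.76%) and 21 of 832 beyond (2.52%), beside 2.39% of all regions.

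**Figure D2:**
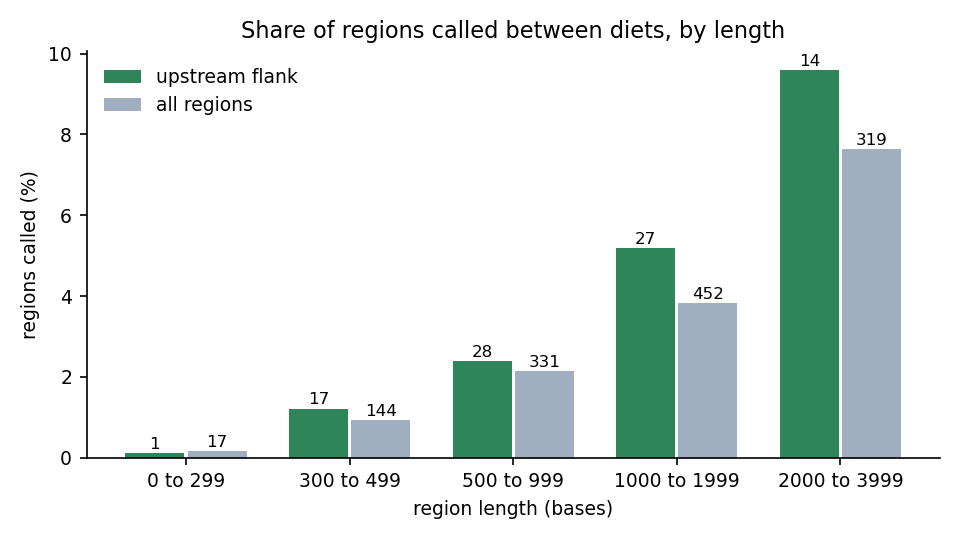
Share of regions that passed adjusted p under 0.05 between diets (vertical axis, percent) in 5 bands of region length (horizontal axis, bases), for the flank regions and for all regions, with the number called above each bar. The share rises from 0.11% to 9.59% in the flank and from 0.173% to 7.65% over all regions.

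A strongly acetylated flank region upstream of Bcr fell in HFD (chr10:75050455-75053603, the region that holds the Gm51773 start window printed above). Its level was 106, 99.7 and 105 CPM in CD A, C and D and 43.4, 38.1 and 57.4 CPM in HFD A, B and D. Every CD library was thus well above every HFD library, and the log2 change was -1.17 ± 0.09 (SE, adjusted p = 2.29e-14). The promoter-proximal region of Bcr changed by -0.24 (adjusted p = 0.119), and Bcr RNA was 56.2 ± 5.52 CPM in CD and 51.7 ± 6.09 CPM in HFD (SD, n = 4 each), which did not pass the test (adjusted p = 0.647). The RNA of Gm51773 was not analysed here.

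Slc34a2, which encodes a sodium-dependent phosphate transporter, and Fam222a lost acetylation together in flank and promoter. The region 6891 bases upstream of Slc34a2 (chr5:53042215-53042708) held 6.07, 5.83 and 5.05 CPM in CD and 1.53, 2.26 and 3.08 CPM in HFD, a log2 change of -1.33 ± 0.24 (adjusted p = 0.000146). Its promoter-proximal region changed by -1.27 (adjusted p = 4.87e-09). The RNA fell from 5.55 ± 0.722 to 0.203 ± 0.129 CPM (SD, n = 4 each), a log2 change of -4.75. The region 7373 bases upstream of Fam222a held 5.63, 4.67 and 3.66 CPM in CD and 2.04, 1.65 and 2.09 CPM in HFD (log2 -1.28 ± 0.25, adjusted p = 0.000619). The promoter of Fam222a changed by -1.03 and its RNA by -2.44, and both passed. In both genes the diets were separate in the flank, at the promoter and in the RNA.

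Agxt, an enzyme that detoxifies glyoxylate, lost acetylation at a flank region and at the promoter without losing RNA. The region 6604 bases upstream (chr1:93127749-93129521) held 11.1, 13.1 and 17.3 CPM in CD and 5.71, 6.34 and 6.92 CPM in HFD (log2 -1.13 ± 0.18, adjusted p = 1.28e-05). A nearer flank region, 2683 bases upstream, was not called and its diets overlapped (log2 -0.49, adjusted p = 0.263). The promoter-proximal region changed in the same direction (-0.64, adjusted p = 4.17e-07). Agxt RNA was higher in each HFD liver than in each CD liver, 180 ± 49 CPM in CD and 277 ± 37.2 CPM in HFD (SD, n = 4 each), but this did not pass the test (log2 0.62, adjusted p = 0.0954). The region 8813 bases upstream of Cyp2d9, a male-biased cytochrome P450 of a family with near-identical copies, held 5.45, 5.83 and 6.83 CPM in CD and 2.64, 2.35 and 3.19 CPM in HFD (log2 -1.15 ± 0.22, adjusted p = 0.00052). Cyp2d9 RNA changed by -0.43 on the log2 scale (adjusted p = 0.0992).

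Id3, an inhibitor of helix-loop-helix transcription factors and a target of BMP signalling, had a wide flank region of 3118 bases, 8434 bases upstream (chr4:136133829-136136946). It held 56.4, 56.5 and 51.8 CPM in CD and 32.8, 37.2 and 34.5 CPM in HFD, a log2 change of -0.66 ± 0.10 (adjusted p = 2.9e-06). Id3 RNA fell from 65.3 ± 19.2 to 24.9 ± 8.38 CPM (SD, n = 4 each; log2 -1.39, adjusted p = 0.00717). The region 8458 bases upstream of Rnf125, a ubiquitin ligase, had the lowest ratio of all called flank regions: 3.84, 5.42 and 2.87 CPM in CD and 0.766, 1.56 and 0.879 CPM in HFD (log2 -1.91 ± 0.30, adjusted p = 1.26e-05). Rnf125 RNA fell by 1.55 on the log2 scale, while its promoter-proximal region did not pass the test (-0.25, adjusted p = 0.382).

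The region 3644 bases upstream of Blcap, which also lies within 10000 bases downstream of the imprinted gene Nnat, held 11.5, 12.8 and 9.41 CPM in CD and 5.37, 5.91 and 5.93 CPM in HFD (log2 -0.98 ± 0.18, adjusted p = 0.000224). Blcap RNA fell by 0.44 on the log2 scale. Regions upstream of Klf11, a Krüppel-like transcription factor (-1.25), Reep4 (-1.18), Jsrp1 (-1.64), Ang and Rnase4, which share a start and encode secreted ribonucleases (-0.69), Slc35e1 (-0.61) and Sec14l2, a lipid-binding protein (-0.53), were lower in HFD with non-overlapping diets. All of these, and those of Bcr, Slc34a2, Fam222a, Agxt, Cyp2d9, Id3, Rnf125, Blcap and G630071F17Rik (-0.82), stayed called whichever of the 6 H3K9ac libraries was left out. A fainter region 5622 bases upstream of Jsrp1 (-1.18, adjusted p = 0.00622) lost its call without CD C, HFD A or HFD B (adjusted p up to 0.114).

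Other decreases rested on single libraries. The region 1053 bases upstream of Tie1, an endothelial receptor, was called at -1.08 (adjusted p = 0.002) and not without CD D (0.0589). Both regions upstream of the unnamed transcript Gm9833 were called (-1.23 and -1.11), the first not without CD C or HFD B (adjusted p up to 0.163) and the second not without CD A (0.0713). The region 2530 bases upstream of Gpd1, the cytosolic glycerol phosphate dehydrogenase, fell by 1.64 from 2.68, 1.33 and 2.18 to 0.766, 0.521 and 0.659 CPM and was not called without CD A, CD D or HFD B (adjusted p up to 0.214). The promoter of Gpd1 changed by -0.75 (adjusted p = 8.46e-10). Upstream of Csad, a taurine synthesis enzyme, the region fell by 0.75 (adjusted p = 0.0453) and was not called without CD C, CD D, HFD A or HFD B (up to 0.332), although Csad RNA fell by 4.12. The Ldha region, upstream of lactate dehydrogenase A, fell by 0.44 and was not called without CD A, CD C or HFD B (up to 0.0941).

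Per1 gained acetylation in flank and promoter. The region 3826 bases upstream (chr11:69093947-69096312) held 56.4, 56.4 and 42.8 CPM in CD and 85.1, 76.9 and 64.6 CPM in HFD (log2 0.54 ± 0.10, adjusted p = 0.00011). The promoter-proximal region rose by 0.41 (adjusted p = 0.00141). Per1 RNA was 2.63 ± 1.07 CPM in CD and 33.4 ± 17 CPM in HFD (SD, n = 4 each; log2 3.66, adjusted p = 0.000609), so the RNA differed far more than the mark. The flank region also lies within 10000 bases downstream of Vamp2, whose RNA was 16.7 ± 1.88 and 17.4 ± 0.842 CPM and did not pass the test.

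Por, cytochrome P450 oxidoreductase, which supplies electrons to the microsomal P450 enzymes, had 2 called flank regions. The one 7454 bases upstream held 3.84, 3.67 and 3.17 CPM in CD and 9.11, 8.25 and 5.05 CPM in HFD (log2 1.08 ± 0.21, adjusted p = 0.000704). The one 6134 bases upstream held 3.22, 3.25 and 1.98 CPM in CD and 5.88, 6.52 and 3.19 CPM in HFD (log2 0.89 ± 0.24, adjusted p = 0.0265). There HFD D lay within the CD range, and the call was lost without CD C, CD D, HFD A or HFD B (adjusted p up to 0.39). The Por promoter rose by 0.34 (adjusted p = 0.0277). Por RNA was 142 ± 25.8 CPM in CD and 209 ± 85.5 CPM in HFD (SD, n = 4 each), with overlapping diets (adjusted p = 0.261).

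Cyp17a1, the steroid 17-hydroxylase, whose liver RNA is higher in females, had a faint flank region 6981 bases upstream with 1.79, 1.25 and 0.99 CPM in CD and 3.75, 2.69 and 2.64 CPM in HFD (log2 1.17 ± 0.30, adjusted p = 0.0149). The call was lost without CD C, CD D, HFD A or HFD B (adjusted p up to 0.218). This region also lies within 10000 bases upstream of 2010012O05Rik, whose RNA rose by 0.57 (adjusted p = 0.0202). The Cyp17a1 promoter rose by 1.25 and the RNA rose from 2.51 ± 0.378 to 25.4 ± 8.59 CPM (SD, n = 4 each; log2 3.34, adjusted p = 7.04e-05). The increases at Aim1 and Armc12 stayed called without any 1 of the 6 libraries. The Aim1 region (chr10:44005664-44006658) held 10.0, 11.7 and 13.0 CPM in CD and 19.0, 19.1 and 21.4 CPM in HFD (log2 0.78 ± 0.14, adjusted p = 0.000218). The Armc12 region, which holds the E230001N04Rik window printed above, held 32.2, 31.2 and 18.9 CPM in CD and 46.8, 50.1 and 41.0 CPM in HFD (log2 0.74 ± 0.12, adjusted p = 2.15e-05). With DESeq2 the Armc12 region did not pass (adjusted p = 0.0781).

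Further gains had calls that depended on single libraries. The region 7730 bases upstream of Mpc1, a subunit of the mitochondrial pyruvate carrier, held 1.43, 0.583 and 0.495 CPM in CD and 2.73, 2.0 and 1.87 CPM in HFD (log2 1.39, adjusted p = 0.0314), and Mpc1 RNA rose by 0.64. Upstream of Bbox1, the last enzyme of carnitine synthesis, the region rose by 0.78 (adjusted p = 0.0362) and the RNA by 0.50. The region upstream of Ahcy, S-adenosylhomocysteine hydrolase, rose by 0.69 (adjusted p = 0.00258), and that of Lpin1, a phosphatidate phosphatase, by 0.48 (adjusted p = 0.0259). The calls at Mpc1, Bbox1 and Lpin1 were lost without CD C, CD D, HFD A or HFD B, and that at Ahcy without HFD A or HFD B. The region upstream of Ppl, a desmosome-linked plakin, rose by 0.49 (adjusted p = 0.00656), a call lost without CD C or HFD B. The highest adjusted p-values in fits without 1 library were 0.29 for Mpc1, 0.537 for Bbox1, 0.0946 for Ahcy, 0.35 for Lpin1 and 0.166 for Ppl. Gains were also called upstream of Furin (0.99), Birc5 (0.87), Inmt (0.86), Tff3 (0.77) and Gm4956 (1.14). The call at Gm4956 was lost without HFD A, and each of the other 4 without HFD B or further single libraries, with adjusted p-values up to 0.368, 0.25, 0.542, 0.318 and 0.108 in that order.

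**Figure D3:**
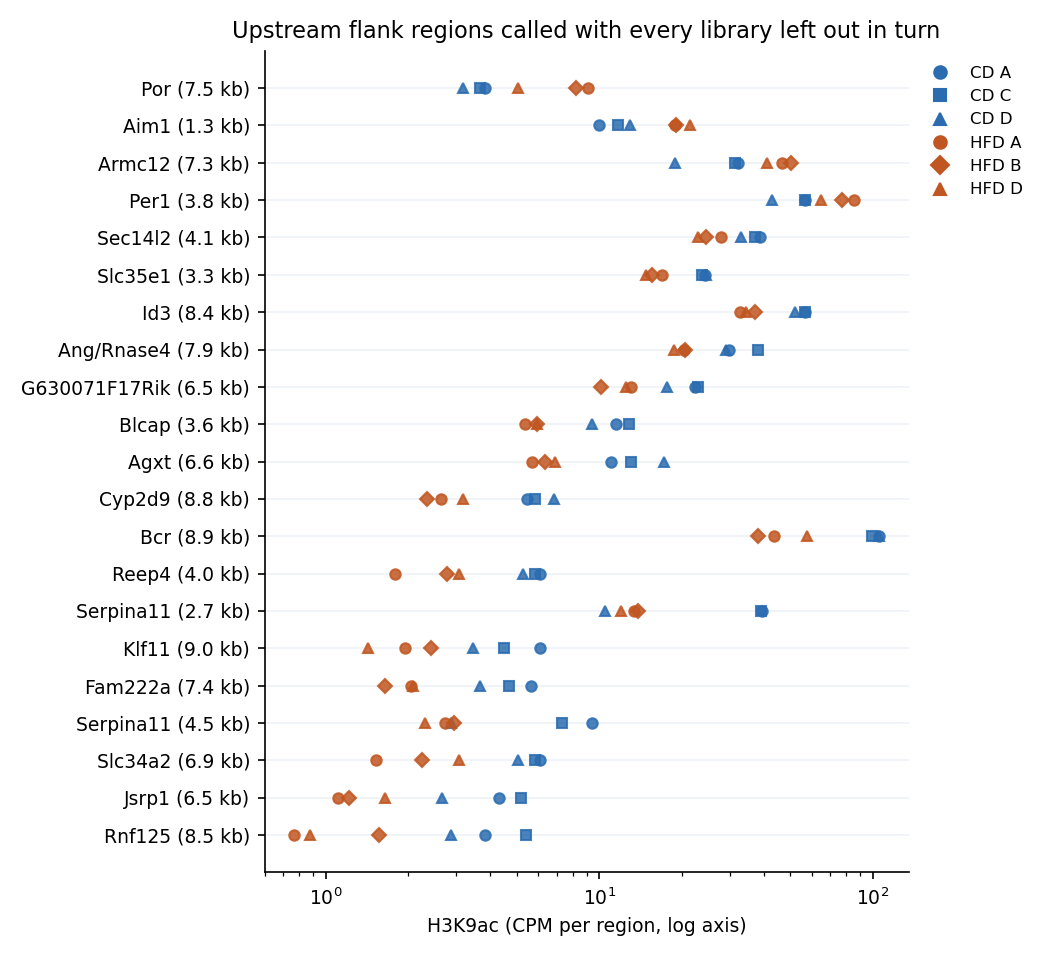
H3K9ac level (CPM per region, log axis) in each of the 6 libraries for 21 of the 22 flank regions that stayed called whichever library was left out, named by the nearest gene with the distance in kilobases. CD (blue) and HFD (orange) are separate in each region except the 2 upstream of Serpina11, where CD D lies among or below the HFD libraries.

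Gene lists of liver function held 283 of the flank regions, of which 12 were called (4.24%, beside 2.10% of flank regions and 2.39% of all regions). The lists were chosen with earlier results known, single lists hold few regions, and no test compared them with the rest. Of the 12 flank regions of 7 clock genes, 1 rose (Per1) and 0 fell, with a list median of 0.08. The region upstream of Per2 had 0.52 (adjusted p = 0.23) and the one upstream of Nr1d1, a repressor of the clock, had -0.32 (adjusted p = 0.131), although 5 of the 7 clock genes had higher RNA and 1 had lower RNA. Among 15 regions of 6 male-biased liver genes, 3 fell, 1 of Cyp2d9 and 2 of Selenbp2, and the list median was -0.58. Selenbp2, a selenium-binding protein with a near-identical copy in Selenbp1, held 24.3, 24.3 and 14.2 CPM in CD and 15.1, 15.6 and 12.6 CPM in HFD in the region 2897 bases upstream (log2 -0.54, adjusted p = 0.0329). CD D was inside the HFD range there, and the call was lost without CD A, CD C, HFD A, HFD B or HFD D (up to 0.368). Selenbp2 RNA fell by 2.11. Of 4 regions of 3 female-biased genes 1 rose, that of Cyp17a1.

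In the list of lipogenesis, desaturases and elongases, 33 regions of 17 genes included 1 that rose (Lpin1) and 1 that fell, upstream of Acaca, acetyl-CoA carboxylase (-0.75, adjusted p = 0.0434, lost without CD A, CD D, HFD A or HFD B, up to 0.401), with a median of 0.03. The region of Elovl3, a fatty acid elongase, had -0.88 and did not pass (adjusted p = 0.0964), while Elovl3 RNA fell by 2.28. The list of bile acid and sterol transport also holds enzymes, and of its 11 regions 1 fell, that of the taurine synthesis enzyme Csad. The one upstream of Cyp8b1, the sterol 12-hydroxylase, had -0.59 (adjusted p = 0.0636). Of 7 regions of clock-driven output genes 2 rose, both of Por. Of 15 xenobiotic regions 2 rose (the same 2) and 1 fell (Cyp2d9). The glutathione list had 1 fall in 14, upstream of Gsta2, a glutathione transferase with near-identical copies (-0.83, adjusted p = 0.0241, lost without CD A, CD D or HFD B, up to 0.258). The amino acid list had 1 fall in 16 (Agxt).

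Regions of several other lists gave 0 calls by the edgeR test: cholesterol synthesis (14 regions), fatty acid oxidation (10), lipid uptake and lipoproteins (20), glucose and insulin (28), immediate early genes (21), endoplasmic reticulum stress (9), acute phase, complement and coagulation (25) and hepatocyte transcription factors (24). These 8 lists held 150 different regions, of which 24 (16%, beside 11.4% of flank regions) had an unadjusted p under 0.05 and 0 passed with DESeq2. Among the 24 were the regions upstream of Igfbp1, an insulin-repressed binding protein (-0.68, adjusted p = 0.0609), and Atf4, a stress-response factor (-0.56, adjusted p = 0.0502). Igfbp1 RNA fell by 2.54 and Atf4 RNA by 0.56. The regions next to markers of hepatocytes (14), sinusoidal endothelium (8), Kupffer cells and macrophages (3), stellate cells (4), cholangiocytes (1) and lymphocytes (2) also gave 0 calls by edgeR and by DESeq2, with 3 of 32 at an unadjusted p under 0.05. In the RNA, hepatocyte markers summed to 129414 to 144556 CPM in CD and 145624 to 171059 CPM in HFD. Of these 13 markers 2 passed the test, Cyp2e1 and Hpd, both higher. Alb, the largest part of the sum, did not (adjusted p = 0.316), and Fgb was lower without passing (log2 -0.41, adjusted p = 0.0656). The 13 stellate markers summed to 432 to 503 CPM in CD and 333 to 580 CPM in HFD. The 4 measured lymphocyte markers summed to 7.73 to 11.9 and 7.18 to 16.4 CPM. The 12 sinusoidal endothelial markers summed to 220 to 301 CPM in CD and 183 to 378 CPM in HFD, and the 13 measured Kupffer cell and macrophage markers to 237 to 343 and 183 to 481 CPM. The 7 measured cholangiocyte markers summed to 85.8 to 102 CPM in CD and 57.9 to 84.6 CPM in HFD, and the part of such cells in the results was not tested.

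Flank and promoter of the same gene mostly changed in the same direction where the flank was called. A promoter-proximal region existed for 59 of the 87 called flank regions (51 genes), and 54 of the 59 had the same sign of change. Among the 39 lower regions 38 had a lower promoter, and among the 20 higher ones 16 had a higher promoter. The promoter itself passed the test for 15 of the 51 genes, in the same direction as the flank each time. Over all 2077 genes with a flank and a promoter-proximal region it passed for 100. Among all promoter-proximal regions, short and weak ones included, the share was 2.73%. In 51 of the 59 pairs the flank had the larger log2 change, but these flank regions were selected by their change and the promoters were not. Over all 3059 flank regions with a promoter-proximal region, 58.7% had the same sign and Pearson's r of the log2 changes was 0.267 (Spearman's rank correlation 0.236). The points share the same 6 libraries, and regions of 1 gene share a promoter.

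**Figure D4:**
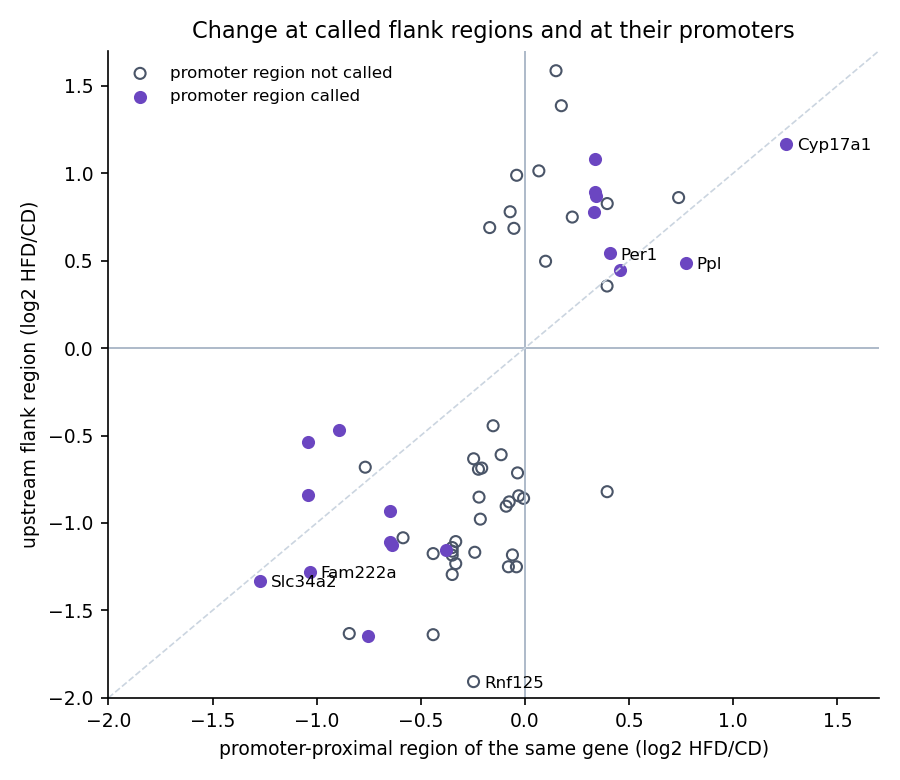
Log2 HFD/CD of each of 59 called flank regions (vertical axis) against that of the promoter-proximal region of the same gene (horizontal axis), filled where the promoter region was also called, with a dashed line of equal change. Points lie mostly in the lower left and upper right, and 54 of 59 have the same sign.

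RNA and flank H3K9ac were compared through the nearest gene. Of 2026 measured genes next to flank regions, 218 (10.8%) passed in the RNA, 108 higher and 110 lower, beside 7.27% of all 12334 genes. Of the 60 measured genes next to called flank regions, 18 (30%) passed, 5 higher and 13 lower, and in each of the 18 the RNA and the flank changed in the same direction. Regions listed under more than 1 gene were not in this count. One of them goes the other way: Rnase4 RNA rose by 0.94 (adjusted p = 0.0123) while the flank region it shares with Ang fell. The higher genes were Per1, Cyp17a1, Ppl, Bbox1 and Mpc1. The lower genes were Slc34a2, Fam222a, Id3, Rnf125, Blcap, Csad, Selenbp2, Serpina4-ps1, Capn8, Fgfr1, Xirp1, Slc25a33 and Fam25c. Fam25c RNA fell by 1.07, that of Slc25a33, a mitochondrial pyrimidine nucleotide carrier, by 0.74, that of Capn8, a calpain protease, by 1.30, that of Xirp1 by 1.74 and that of Fgfr1, a fibroblast growth factor receptor, by 0.71. The flank calls of these 5 were each lost without 1 or more single libraries, HFD B for Fam25c, Slc25a33, Capn8 and Xirp1 and HFD A or CD C for Fgfr1 (adjusted p up to 0.409, 0.112, 0.184, 0.214 and 0.13). The other 42 genes did not pass, Agxt, Bcr and Klf11 among them. Around genes whose RNA passed, the flank changed in the same direction as the RNA in 254 of 354 regions, and over all 3062 regions with a measured gene in 1723. Across those 3062, Spearman's rank correlation of the changes was 0.20.

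Some called flank regions had a called neighbour. With gaps of up to 10000 bases, 18 of the 87 fell into 8 groups, each of a single direction: upstream of Serpina11 (4 regions), Jsrp1, Gm5535, Gm9833, Selenbp2 and 5033403H07Rik with losses, and of Por and 4930562C15Rik with gains (2 regions each). All calls at Gm5535, 5033403H07Rik and 4930562C15Rik were lost without single libraries: CD A, CD C or HFD B for both Gm5535 regions and also HFD A or HFD D for the farther one (adjusted p up to 0.163 and 0.277), CD A, HFD A or HFD B for both of 5033403H07Rik, with CD D for the nearer and CD C for the farther one (up to 0.304 and 0.326), and CD C, CD D, HFD A or HFD B for both of 4930562C15Rik (up to 0.211 and 0.256). The genes with the most flank regions, 6 each, were Ddi2, Fam92b, Gnb1, Mettl7b and Ncf1. Of their 30 regions 1 was called, 5199 bases upstream of Fam92b (0.83), and it was lost without CD A, CD C, HFD A or HFD B (adjusted p up to 0.369).

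Serpina11, a serine protease inhibitor of the chromosome 12 Serpina cluster, had 4 called flank regions between 2655 and 7201 bases upstream, and in all of them CD D stood apart from the other CD livers. At 2655 bases the levels were 39.3, 39.0 and 10.5 CPM in CD A, C and D and 13.4, 13.9 and 12.0 CPM in HFD A, B and D. At 6189 bases they were 23.6, 17.1 and 3.76 CPM in CD and 5.71, 8.60 and 5.60 CPM in HFD. The CD D liver was thus below every HFD liver in both. The log2 changes were -1.18 (adjusted p = 3.64e-05), -1.29 (0.000686), -1.16 (0.00269) and -1.14 (0.0422) in order of distance. The third call was lost without CD A or CD C (up to 0.232) and the fourth without CD A, CD C, HFD B or HFD D (up to 0.48). Without CD D they were -1.57 (1.96e-13), -1.62 (1.82e-06), -1.59 (6.66e-09) and -1.56 (0.000213). With DESeq2 none of the 4 regions passed (adjusted p = 0.433, 0.211, 0.694 and 0.756). In the authors' deposited table, only the second of these regions has a false discovery rate under 0.05 (0.0025), and the others have 0.376, 0.591 and 0.597. The promoter-proximal region of Serpina11 held 29.5, 24 and 11.9 CPM in CD and 19.4, 20.3 and 11.3 CPM in HFD. It did not pass with all libraries (log2 -0.35, adjusted p = 0.437) and passed without CD D (-0.62, adjusted p = 0.0117). Serpina11 RNA was 67.5 ± 10.3 CPM in CD and 70.3 ± 12.6 CPM in HFD (SD, n = 4 each) and did not pass the test.

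The neighbouring pseudogene Serpina4-ps1 had a called region 3383 bases upstream, with 4.20, 2.83 and 1.58 CPM in CD and 1.02, 0.869 and 0.879 CPM in HFD (log2 -1.63, adjusted p = 0.00162). Here the diets did not overlap, though CD D was again the lowest CD library, and the call was lost without CD A (0.119). Serpina4-ps1 RNA was 420, 339, 138 and 95.4 CPM in CD A to D and 25.8, 49.1, 28.1 and 44.4 CPM in HFD (log2 -2.75, adjusted p = 0.00449). Reads of Serpina genes may be shared between near-identical copies, so these levels are uncertain. The region 4329 bases upstream of 4933440J02Rik (24.3, 17.3 and 10.3 CPM in CD, 11.4, 9.73 and 11 CPM in HFD) was a further called loss in which CD D lay in the HFD range (log2 -0.70, adjusted p = 0.0121), and its call was lost without CD A, CD C or HFD B (up to 0.5).

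**Figure D5:**
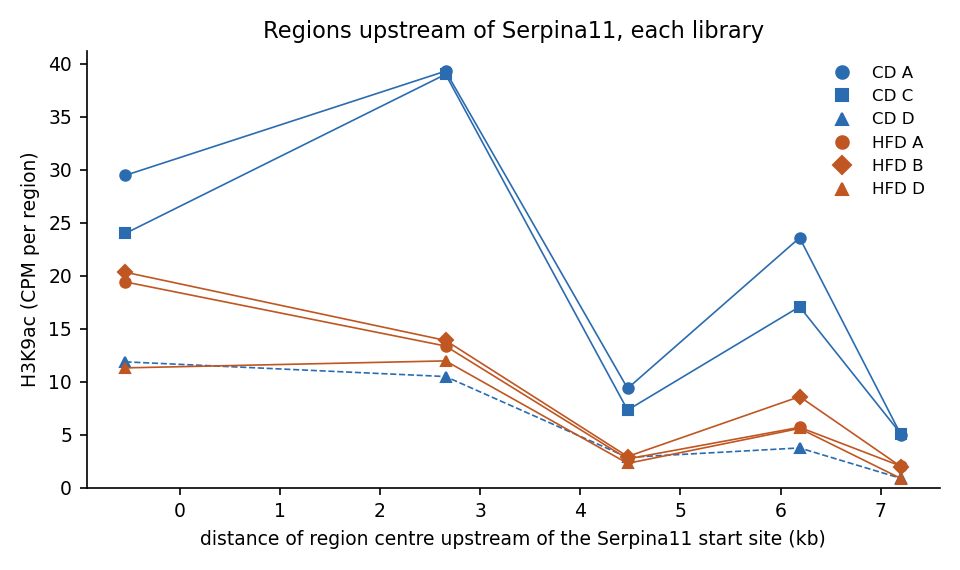
H3K9ac level (CPM per region, vertical axis) in each library for the promoter-proximal region and the 4 flank regions of Serpina11, placed by the distance of the region middle upstream of the start site (horizontal axis, kilobases, negative for downstream). CD A and C lie above the HFD libraries at each flank region, and CD D (dashed) lies among or below them.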

How the data were processed

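Liver H3K9ac (3 libraries per diet) and polyadenylated RNA (4 per diet) were measured. A labelled input library and 2 ATAC libraries, all of the control diet, were not analysed here. The authors deposited 1 table per assay with raw read counts per region or gene, per the file headers, together with log2 fold changes and adjusted p-values of their own, per the file headers. Regions form 1 set common to all libraries. Per the submitters' processing notes the genome build was mm10, and coordinates are printed as the authors' table gives them. For aligner, peak caller, counter and use of strand nothing was stated (not given in the sources used here). The table's distances run from the middle of a region to the start site. Another 14 columns of log-scale values of the same libraries were not used, and 0 value columns were unmatched. Left out were 4999 lines of the RNA table without a gene symbol. For H3K9ac, 119 lines had a gene name turned into a date and were used without a name.

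Counts were scaled with TMM and diets compared with edgeR 4.0.16 (glmQLFit, glmQLFTest, R 4.3.3), diet as the only term. All regions or genes that passed filterByExpr entered, with Benjamini-Hochberg adjustment and a threshold of 0.05. Changes are log2 HFD over CD with standard errors from the fit. Total counts were 9255635 to 12149497 per H3K9ac library and 31802893 to 37596560 per RNA library. Libraries correlated at 0.938 to 0.957 within diets and 0.929 to 0.944 between them over the flank regions (log2 CPM), and no pair was alike within sampling noise (lowest chi-square per degree of freedom 1.49). A floor of 3 reads corresponds to 0.25 to 0.329 CPM in the H3K9ac libraries. Densities and read shares were compared with exact permutation tests. For each gene the promoter-proximal region with the highest level was used.

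Named regions follow a rule: passed, non-overlapping diets and at or above the median level, up to 15 in each direction by size of change. To these come the 3 smallest p-values per gene list, the 8 densest regions, the genes with the most regions, and genes whose region and RNA both passed (up to 10). Other called regions named in the text (of Gpd1, Ldha, Mpc1, Ahcy and Serpina11, for example) were chosen after their values were seen, as were the motifs. The regions, lists and rules were chosen with earlier results of these data known. A called region that this rule names is not reported here. The scripts were tested on simulated data. Alternatives were library totals, DESeq2 1.42.0, a filter at the median count, each library left out, a replicate block, and stricter limits on length and edge distance. No genome of the build was used, so sequences come only from RefSeq start windows (GRCm38.p6), which matched 2021 of the nearest genes by symbol.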

Additional observations from a re-analysis of the deposited data

Results flagged for a closer look

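Among 38 groups of 4 RNA libraries checked for genes whose values are used above, 2 held a library far from the other 3, where chance gives about 1 group in 20. In each, the gap to the nearest other library, as a share of the range of the group, exceeded the 95% critical value of Dixon's test. For Slc34a2 in HFD the share was 0.895: HFD D had 0.395 CPM and the others had 0.122 to 0.151 CPM. For Agxt in CD it was 0.837: CD B had 107 CPM and the others had 197 to 215 CPM. With 3 H3K9ac libraries per diet no such check was made for the flank regions.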

How the results depend on the processing

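The 87 called flank regions became 38 with DESeq2, which gives some faint regions no adjusted p, and 43 when only regions at or above the median count were tested (fewer regions entered). Leaving out 1 H3K9ac library gave 32 (without HFD B) to 112 (without HFD D). Without HFD D the split was 56 higher and 56 lower, beside 29 and 58 with all libraries. Counts were 56 without CD A, 40 without CD C and 51 without HFD A. Of the 87, 22 stayed called in all 6 such fits and 38 with DESeq2. Library totals (69), length below 2000 bases (73) and the nearer edge over 1000 bases away (79) stayed within 1.5 times. The median change kept within the spread between libraries under every alternative run. The read share difference (HFD minus CD, -0.0267 percentage points) was -0.0538 (without HFD B) to 0.0209 (without HFD D) with 1 library left out. The H3K9ac density of upstream flank regions against promoter-proximal regions (log2 difference) was -2.301 to -2.266 with 1 library left out, where 5 libraries cannot give an exact permutation p under 0.0625. It was -2.034 for regions below 2000 bases in both classes and -3.996 per region. RNA genes called next to flank regions went from 218 to between 124 (without HFD B) and 259 (without HFD A), with 143 without CD A.

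Whether same-letter livers are paired could not be settled from these values. In H3K9ac, deviations from the diet means correlated at 0.0969 (A) and 0.0926 (D). Both were weak but above every CD and HFD pair of unlike letters (-0.129 to 0.0521). In the RNA the same-letter values were mixed: 0.339 (A), 0.0729 (B), 0.262 (C) and -0.257 (D). There CD D correlated best with HFD A (0.404). With a replicate block over letters A and D, 68 flank regions were called, and 6 in the same 4 libraries without it, an alternative chosen after seeing the data. In the RNA the replicate block gave 207 genes next to flank regions. The cause of these changes was not tested. The median flank region had 22.8 reads per library, which limits what could be called.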
